A study of Mus musculus with 12 samples.

Results

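RNA levels of 8 transcription factors of the B lineage were examined in megakaryocytes (MKs), the cells that release platelets, sorted from bone marrow (BM) and spleen. The factors were Pax5, Ebf1, Spib, Pou2af1, Pou2f2, Bach2, Ikzf3 and Bcl11a, taken by name as regulators known from B cells. They were chosen with earlier results of these data known, so their shares beside those of all genes describe a chosen list. They were matched by symbol to 8 of the 55536 genes of the count table, and all 8 were among the 20263 genes that passed a filter on low counts. The mice were of the C57BL/6 strain and carried Pf4-Cre with a tdTomato reporter, so that cells which expressed the MK gene Pf4, or descended from such cells, carried a red protein, and the methods give adult animals of both sexes for the study as a whole. The 4 groups, with 3 libraries each, were BM and splenic MKs taken 5 days after saline and BM and splenic MKs taken 5 days after sepsis, which was induced by injecting a slurry of cecal content into the abdomen. Each library held 300 sorted cells that were CD45+, Lineage-, tdTomato+, CD41+ and CD42b+, where the lineage antibodies of the methods included B220, a protein of the B cell surface, and the text of the study adds CD138 among the excluded proteins. The figure legends of the study give 3 mice for the sequencing and its methods 3 independent replicates for each population. Which library came from which mouse was not given, so p values measure the spread between these libraries.

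B cells are specified in a set order by transcription factors. Ebf1 opens and activates early B cell genes and switches on Pax5, which holds cells in the B lineage by activating genes of the B cell receptor complex and repressing genes of other lineages. Spib, an Ets factor close to PU.1, the octamer factor Pou2f2 (Oct-2) and its coactivator Pou2af1 (OCA-B) act mainly in mature B cells, Bach2 delays the change to plasma cells, and Ikzf3 (Aiolos) and Bcl11a act at several steps. Several of them also work outside B cells, such as Spib and Bcl11a in plasmacytoid dendritic cells, Bach2 and Ikzf3 in T cells and Bcl11a in erythroid and progenitor cells. In the BM, B cell development and the making of MKs take place side by side, and the spleen holds mature B cells and plasma cells.

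Total counts per library were between 7756762 and 27386184, and levels are given as CPM, read counts relative to the library total scaled with TMM factors. A count of 0 allowed up to 3 counts, or 0.105 to 0.405 CPM depending on the library, which covers counting error only. Of the counts, 1.04% to 4.23% in BM and 13.0% to 30.1% in spleen fell on gene segments of immunoglobulins and T cell receptors. The 10 MK marker genes, Pf4 among them, were detected in both tissues and summed to 11729 to 47531 CPM in BM and to 1218 to 3520.2 CPM in spleen. All 10 had a negative log2 fold change of spleen over BM after either treatment. Of these, 4 after saline and 3 after sepsis were called lower in spleen at an adjusted p under 0.05 in edgeR. Over all 20263 genes tested, 106 and 121 were called lower. The count of MK markers after saline was 2 without splenic saline replicate 1, 7 without splenic sepsis replicate 3 and 0 with limma-voom. The 10 B cell markers summed to 123 to 1033 CPM in BM and 16727 to 51896 CPM in spleen, above the MK markers in every splenic library. Of these, 9 of 10 were called higher in spleen after either treatment. In these pooled libraries, fewer cells of a type and less RNA per cell cannot be told apart. Splenic sepsis replicate 3 stood apart from the other splenic libraries, with 125 CPM of the B cell receptor gene Cd79a against 700.4 to 2829 CPM in the other 5. Some of the results that rest on it are also given without it, and for others its value is named.

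All 8 factors were higher in splenic than in BM MKs in every library. The lowest of the 6 splenic libraries lay above the highest of the 6 BM libraries for each of the 8, a separation shown by 1.87% of all genes tested, and the lowest splenic library exceeded the highest BM library by 1.31 times (Bcl11a) to 22.5 times (Spib). Between tissues after saline, edgeR's quasi-likelihood test called 4 of the 8 higher in spleen (Ebf1, Spib, Pou2af1 and Bach2), where 0.725% of all genes tested were called higher, and after sepsis it called 7 of the 8 (all but Ikzf3), against 1.18% of all genes. A gene was called at a Benjamini-Hochberg adjusted p under 0.05 over all 20263 genes, and log2 fold changes are given ± SE. With the difference between tissues averaged over both treatments, a contrast added after the data were seen, all 8 were called higher in spleen against 2.68% of all genes. The median log2 fold change of spleen over BM was 4.07 over the 8 factors after saline and 5.31 after sepsis, beside medians of 0.28 and 0.18 over all genes tested.

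**Figure D1:**
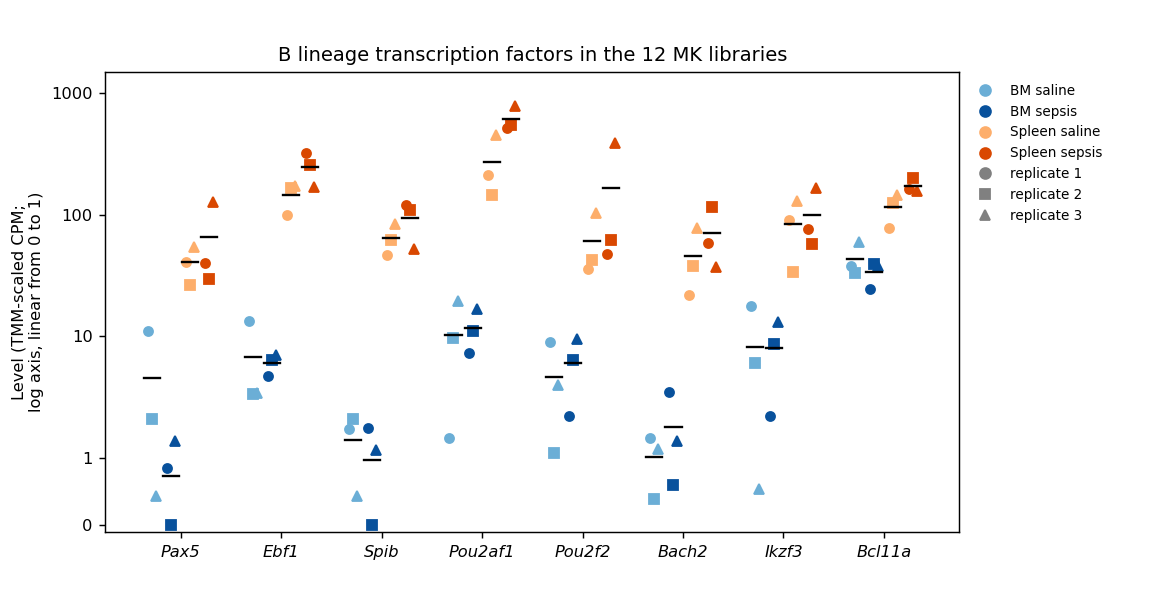
Level of each factor in each library, in TMM-scaled CPM on a log axis that is linear from 0 to 1, with 1 point per library, colours for the 4 groups, shapes for replicates 1 to 3 and black bars for group means (n = 3). For all 8 genes the 6 splenic points lie above the 6 BM points, and Bcl11a has the highest BM points, between 24.5 and 59.2 CPM.

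Ebf1 (ENSMUSG00000057098, chromosome 11, 44617317 to 45008091, forward strand of GRCm38) encodes the factor that starts the B cell program. In BM MKs Ebf1 was at 13.3, 3.38 and 3.45 CPM in replicates 1 to 3 after saline and 4.76, 6.38 and 6.98 CPM after sepsis. In splenic MKs it was at 100.1, 166 and 172 CPM after saline and 319.6, 255 and 169 CPM after sepsis. The splenic libraries were all above the BM libraries, and within spleen the 2 highest were sepsis replicates 1 and 2, with the third sepsis library inside the range of saline. The log2 fold change of spleen over BM was 4.44 ± 0.701 (edgeR, adjusted p = 0.00251) after saline and 5.36 ± 0.73 (adjusted p = 0.000413) after sepsis, or 21.7 and 41.01 times, and both calls held under all 21 alternatives (adjusted p up to 0.0267 and 0.00802).

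Pax5 (ENSMUSG00000014030, chromosome 4, 44524757 to 44710487, reverse strand) encodes the factor that keeps cells in the B lineage. BM MKs held Pax5 at 11.1, 2.09 and 0.431 CPM in replicates 1 to 3 after saline and 0.848, 0 and 1.37 CPM after sepsis. The splenic libraries held 41.2, 26.4 and 54.3 CPM after saline and 40.3, 29.7 and 127 CPM after sepsis. BM saline replicate 1 held by far the most Pax5 of the BM libraries, and 1 BM sepsis library had no read of it. The difference between tissues was called after sepsis (log2 fold change 6.42 ± 1.41, edgeR adjusted p = 0.0208) and not after saline (3.16 ± 1.21, adjusted p = 0.312, or 0.131 without BM saline replicate 1, where the log2 fold change was 4.96). Without splenic sepsis replicate 3, which had the highest Pax5 of all, the log2 fold change after sepsis was 5.50 (adjusted p = 0.0435). Antisense genes overlap 8.60% of its exonic sequence, and whether the counting used strand was not given in the sources used here.

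Spib (ENSMUSG00000008193, chromosome 7, 44525993 to 44532071, reverse strand) encodes an Ets factor of mature B cells and plasmacytoid dendritic cells. Spib in BM MKs was at 1.72, 2.09 and 0.431 CPM in replicates 1 to 3 after saline and 1.76, 0 and 1.16 CPM after sepsis. Splenic MKs had 46.9, 62.2 and 83.7 CPM after saline and 121, 109 and 52.6 CPM after sepsis. It was close to absent from BM MKs, with no BM library above 2.09 CPM or 33 counts, and its splenic values differed by less than those of most other factors, the highest being 2.59 times the lowest. Its fold changes were the largest among the 8 after either treatment, though that of Bach2 after saline and that of Pax5 after sepsis were within its SE, at a log2 fold change of 5.49 ± 1.11 (edgeR, adjusted p = 0.0163) after saline and 6.57 ± 1.17 (adjusted p = 0.00436) after sepsis, and both calls held under all 21 alternatives (adjusted p up to 0.0480 and 0.0293). Its promoter is shown because among the members' promoter windows only that of Spib held the palindrome that Ebf1 binds, with the 150 bases before the start site of RefSeq (chr7:44532072-44532221 of GRCm38.p6, reverse strand, 5′ to 3′) given here with 2 overlapping matches to CCCNNGGG in capitals, at bases -65 and -64 from the start.
Spib: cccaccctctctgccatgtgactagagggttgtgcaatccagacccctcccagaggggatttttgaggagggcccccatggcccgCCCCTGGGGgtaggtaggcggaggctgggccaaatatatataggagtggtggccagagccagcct

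Pou2af1 (ENSMUSG00000032053, chromosome 9, 51213708 to 51240080, forward strand) encodes OCA-B, a coactivator that joins Oct-1 or Oct-2 on octamer sites. BM levels of Pou2af1 were 1.46, 9.74 and 19.6 CPM in replicates 1 to 3 after saline and 7.24, 10.97 and 16.7 CPM after sepsis. Its splenic levels were 214, 146 and 450.5 CPM after saline and 517, 544 and 778 CPM after sepsis. It was the most abundant of the 8 in every splenic library but splenic saline replicate 2, where Ebf1 had more CPM, and its 3 splenic sepsis libraries were all above the 3 splenic saline libraries. Its log2 fold change between tissues was 4.72 ± 0.798 (edgeR, adjusted p = 0.00418) after saline and 5.71 ± 0.84 (adjusted p = 0.000773) after sepsis, called under all 21 alternatives (adjusted p up to 0.0436 and 0.00802).

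Pou2f2 (ENSMUSG00000008496, chromosome 7, 25087344 to 25179726, reverse strand) encodes Oct-2, which binds octamer sites in B cell genes. In BM MKs Pou2f2 was at 8.94, 1.09 and 3.98 CPM in replicates 1 to 3 after saline and 2.22, 6.38 and 9.47 CPM after sepsis. In spleen the values were 35.8, 42.6 and 104 CPM after saline and 47.5, 62.1 and 392 CPM after sepsis. Splenic sepsis replicate 3 had the highest value of all 12 libraries, and the other 5 splenic libraries lay between 35.8 and 104 CPM. The tissue difference was called after sepsis (log2 fold change 4.79 ± 1.03, edgeR adjusted p = 0.0168), and without that library it was smaller and not called (3.16, adjusted p = 0.120). After saline it was not called (3.69 ± 0.98, adjusted p = 0.0763), and it passed the threshold without any 1 of 8 libraries (the 3 of BM sepsis, the 3 of splenic sepsis, and splenic saline replicates 1 and 2; log2 fold change 3.61 to 3.89, adjusted p = 0.0252 to 0.0454), with no filter (adjusted p = 0.0133) and with DESeq2 (adjusted p = 0.0207).

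Bach2 (ENSMUSG00000040270, chromosome 4, 32238804 to 32586108, forward strand) encodes a repressor that holds back plasma cell genes. The BM levels of Bach2 were 1.46, 0.398 and 1.18 CPM in replicates 1 to 3 after saline and 3.46, 0.595 and 1.37 CPM after sepsis. Levels in splenic MKs were 21.8, 37.7 and 78.2 CPM after saline and 58.4, 115 and 37.1 CPM after sepsis. No BM library exceeded 3.46 CPM, and the splenic values after saline and after sepsis overlapped. The log2 fold change was 5.48 ± 1.05 (edgeR, adjusted p = 0.0105) after saline and 5.27 ± 1.03 (adjusted p = 0.00944) after sepsis, and the call after saline was lost only in the fit of those 6 libraries alone (5.48, adjusted p = 0.0501). The antisense gene Bach2os overlaps 5.40% of its exonic sequence.

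Ikzf3 (ENSMUSG00000018168, chromosome 11, 98464902 to 98546031, reverse strand) encodes Aiolos, a zinc finger factor of the Ikaros family found in maturing B cells and in T cells. Ikzf3 in BM MKs was at 17.9, 6.06 and 0.538 CPM in replicates 1 to 3 after saline and 2.22, 8.67 and 13.2 CPM after sepsis. Splenic MKs held 90.3, 33.9 and 129 CPM after saline and 76.6, 57.7 and 166 CPM after sepsis. BM values spread widely, the highest being 33.2 times the lowest, and the BM and splenic ranges came closest for this gene and for Bcl11a. Neither difference between tissues was called, with log2 fold changes of 3.37 ± 1.02 (edgeR, adjusted p = 0.139) after saline and 3.64 ± 1.03 (adjusted p = 0.0894) after sepsis. The latter passed the threshold without BM saline replicate 1 (3.604, adjusted p = 0.0440), 2 (3.55, adjusted p = 0.0497) or 3 (3.601, adjusted p = 0.0227) or splenic saline replicate 2 (3.61, adjusted p = 0.0429), and with no filter, DESeq2 or limma-voom (3.53 to 3.83, adjusted p = 0.0254 to 0.0356). Averaged over treatments the log2 fold change of 3.503 ± 0.72 was called (adjusted p = 0.00564).

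Bcl11a (ENSMUSG00000000861, chromosome 11, 24078056 to 24174123, forward strand) encodes a zinc finger repressor of lymphoid, plasmacytoid dendritic and erythroid cells. In BM MKs Bcl11a was at 38.1, 32.9 and 59.2 CPM in replicates 1 to 3 after saline and 24.5, 39.1 and 38.2 CPM after sepsis. The levels in spleen were 77.4, 125 and 144 CPM after saline and 163, 201 and 157 CPM after sepsis. It was the only factor of the 8 with at least 331 counts in every BM library (331 to 1089 counts), and it had the smallest fold changes, 2.66 times after saline (log2 fold change 1.41 ± 0.55, edgeR adjusted p = 0.323) and 5.12 times after sepsis (2.36 ± 0.57, adjusted p = 0.0342). The call after sepsis was lost without any 1 of 10 libraries (all but splenic saline replicate 2 and splenic sepsis replicate 3), with a log2 fold change of 2.14 to 2.43 and adjusted p = 0.0502 to 0.361, and with library size alone, no filter or a replicate block (adjusted p = 0.155, 0.1799 and 0.0524). Averaged over treatments the log2 fold change of 1.88 ± 0.39 was called (adjusted p = 0.00639), though not without BM saline replicate 2 (1.72, adjusted p = 0.0681) or BM sepsis replicate 1 (1.76, adjusted p = 0.0538).

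Set side by side per length of exonic sequence, the factors kept unequal levels. In splenic MKs after saline, Pou2af1 was highest at 106 ± 62.7 CPM per kb (mean ± SD, n = 3), followed by Spib at 22.4 ± 6.44 and Ebf1 at 14.98 ± 4.09 CPM per kb. Ikzf3, Bcl11a and Pou2f2 had 9.65 ± 5.47, 8.76 ± 2.61 and 7.36 ± 4.52 CPM per kb, and Bach2 and Pax5 were lowest with 4.62 ± 2.93 and 4.59 ± 1.58. Pou2af1 exceeded each of the other 7 by more than their spread in every replicate, whereas each neighbouring pair from Spib downwards overlapped within their SDs. After sepsis the splenic level was 240.4 ± 56.2 CPM per kb for Pou2af1, 32.8 ± 12.7 for Spib and 25.4 ± 7.73 for Ebf1, and that of Pou2f2 was 20.3 ± 23.6, where 1 library made most of the mean. In BM MKs after saline the order began with Pou2af1 at 4.03 ± 3.56 and Bcl11a at 3.29 ± 1.06 CPM per kb, and the other 6 had means between 0.102 (Bach2) and 0.932 (Ikzf3).

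**Figure D2:**
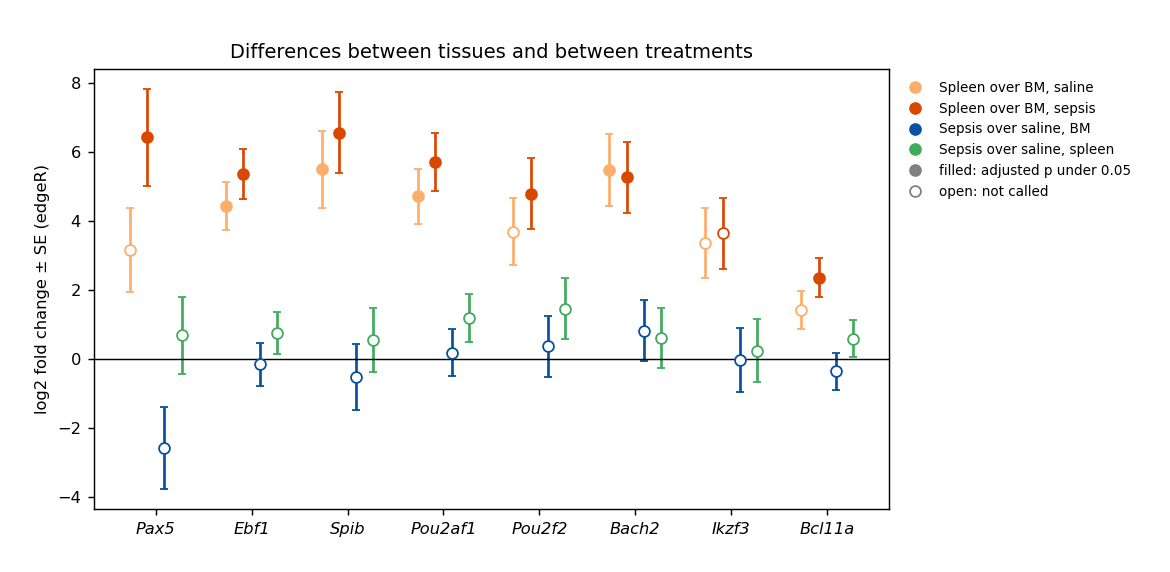
log2 fold change ± SE of each factor from edgeR for spleen over BM after saline and after sepsis and for sepsis over saline in BM and in spleen, with filled points called at an adjusted p under 0.05 and open points not called. The tissue differences lie between 1.41 and 6.57, and those of treatment between -2.57 and 1.46 with none called.

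The effect of sepsis on the factors was asked within each tissue. In splenic MKs all 8 had a positive log2 fold change of sepsis over saline, from 0.25 (Ikzf3) to 1.46 (Pou2f2), and edgeR called 0 of the 8, where 0.158% of all genes tested were called in either direction. The smallest adjusted p was 0.453, none of the 8 had an unadjusted p under 0.05, and DESeq2 and limma-voom also called 0. Pou2af1 came nearest in its levels, with 270.1 ± 159.9 CPM after saline and 613 ± 143 CPM after sepsis (n = 3) and no overlap between the groups, and a log2 fold change of 1.18 ± 0.69 (95% interval -0.26 to 2.63). Bcl11a also had no overlap, at 115 ± 34.3 and 174 ± 24.05 CPM, and 4.95% of all genes tested had 3 splenic sepsis libraries above the 3 saline ones. The 95% interval of the difference was -0.54 to 1.72 for Bcl11a, -0.51 to 2.04 for Ebf1, -1.36 to 2.46 for Spib, -1.19 to 2.41 for Bach2, -1.65 to 3.03 for Pax5, -0.41 to 3.33 for Pou2f2 and -1.69 to 2.18 for Ikzf3 on the log2 scale, and for 4 of these 7 the interval held changes of more than 2 times in either direction. The positive values of Pax5, Pou2f2 and Ikzf3 rested on splenic sepsis replicate 3, without which they were -0.18, -0.12 and -0.30, and that of Ikzf3 was -0.14 without splenic saline replicate 2.

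In BM MKs the log2 fold changes of sepsis over saline were on both sides of 0, with 3 of the 8 positive, and edgeR, DESeq2 and limma-voom called none (0% of all genes tested were called by edgeR). Pax5 was the only factor with an unadjusted p under 0.05, at a log2 fold change of -2.57 ± 1.196 (unadjusted p = 0.0445, adjusted p = 1 in edgeR), from 4.53 ± 5.73 CPM after saline to 0.739 ± 0.691 CPM after sepsis (n = 3). BM saline replicate 3, with 0.431 CPM, lay inside the range of the sepsis libraries, and without BM saline replicate 1 the log2 fold change was -0.72. Whether the tissue difference itself changed with sepsis was tested as an interaction, in which edgeR called 0 of the 8 factors, as did DESeq2 and limma-voom, and edgeR called 0% of all genes. Pax5 had the largest interaction, at 3.26 on the log2 scale ± 1.63 (unadjusted p = 0.0590, adjusted p = 0.658), and none of the 8 had an unadjusted p under 0.05, so the 4 calls after saline and 7 after sepsis do not show that the tissue difference was larger after sepsis.

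The factors were then read beside the B cell surface genes of the same library. The summed CPM of Ms4a1 (which encodes CD20), Cd79a and Cd79b was 42.6 to 229 in BM and 1999 to 8778 in spleen, and the 8 factors summed to 47.01 to 93.9 and 628 to 1878 CPM. Splenic sepsis replicate 3 had the lowest sum of the 3 surface genes among splenic libraries (1999 CPM) together with the highest sum of the factors (1878 CPM). The other 5 splenic libraries had factor sums of 628, 639 and 1215 CPM after saline and 1344 and 1374 CPM after sepsis, beside surface gene sums of 3457, 2384 and 5784 CPM and 8778 and 7504 CPM. The excess of factors in the library that stood apart was carried by Pax5, Pou2af1, Pou2f2 and Ikzf3, each highest there, and not by Ebf1, Spib, Bach2 or Bcl11a.

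**Figure D3:**
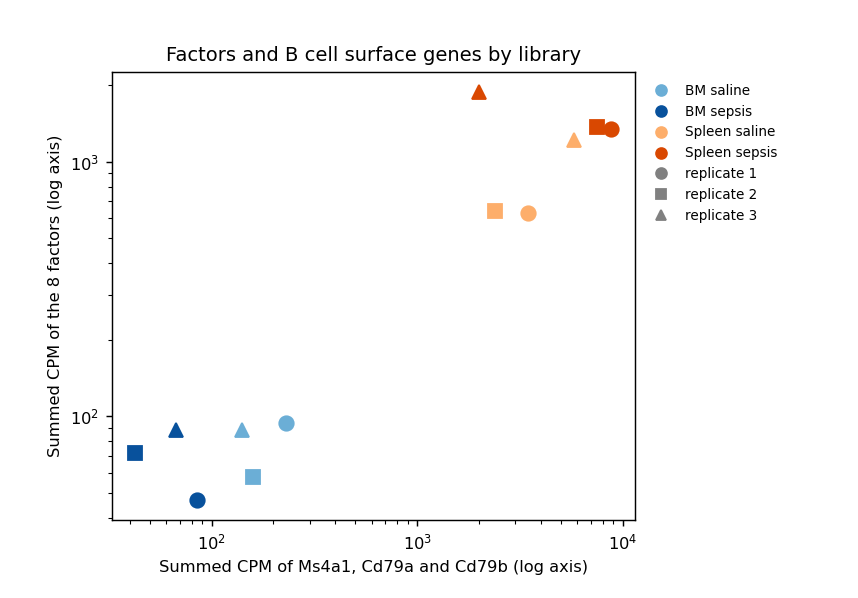
Summed CPM of the 8 factors against the summed CPM of the B cell surface genes Ms4a1, Cd79a and Cd79b in each of the 12 libraries, both on log axes, with colours for groups and shapes for replicates. BM libraries lie at the lower left and splenic libraries at the upper right, and splenic sepsis replicate 3 lies above the others at 1999 CPM of surface genes and 1878 CPM of factors.

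As a percent of those 3 surface genes, a scale added after the data were seen, 7 of the 8 factors overlapped between tissues. Dividing by these genes scales every gene of a library alike, and 42.4% of all genes tested had 6 BM libraries above 6 splenic libraries on this scale. Bcl11a was the 1 factor of the 8 among them, at 16.6% to 91.8% in BM and 1.86% to 7.84% in spleen. In BM, Ebf1 was at 2.13% to 14.97%, Pou2af1 at 0.637% to 25.7%, Pax5 at 0% to 4.83% and Spib at 0% to 2.08%. All 8 factors had their highest splenic share in splenic sepsis replicate 3. In that library Cd79a was at 125 CPM against 700.4 to 2829 CPM in the other 5, and Ms4a1 was also lowest, at 704 CPM. Cd79b, at 1170 CPM, lay within the range of the others (898 to 3189 CPM), as did the summed 10 B cell markers at 46734 CPM. Splenic saline replicate 2 had the next lowest sum of the 3 surface genes (2384 CPM, against 1999 CPM), with shares of 6.11% for Pou2af1 and 1.79% for Pou2f2. The part of low Cd79a in the high shares of splenic sepsis replicate 3 was not tested. Pou2af1 was at 38.9% there and at 5.89% to 7.79% in the other 5 splenic libraries, Pou2f2 at 19.6% and 0.541% to 1.79%, Ikzf3 at 8.302% and 0.769% to 2.61%, and Pax5 at 6.36% and 0.396% to 1.19%. The gap was smaller for Bcl11a (7.84% and 1.86% to 5.23%), Ebf1 (8.47% and 2.897% to 6.97%), Bach2 (1.85% and 0.629% to 1.58%) and Spib (2.63% and 1.36% to 2.61%). These shares rest on few counts in BM, where Pax5 and Spib had 0 counts in 1 library each, and no test was made of them.

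**Figure D4:**
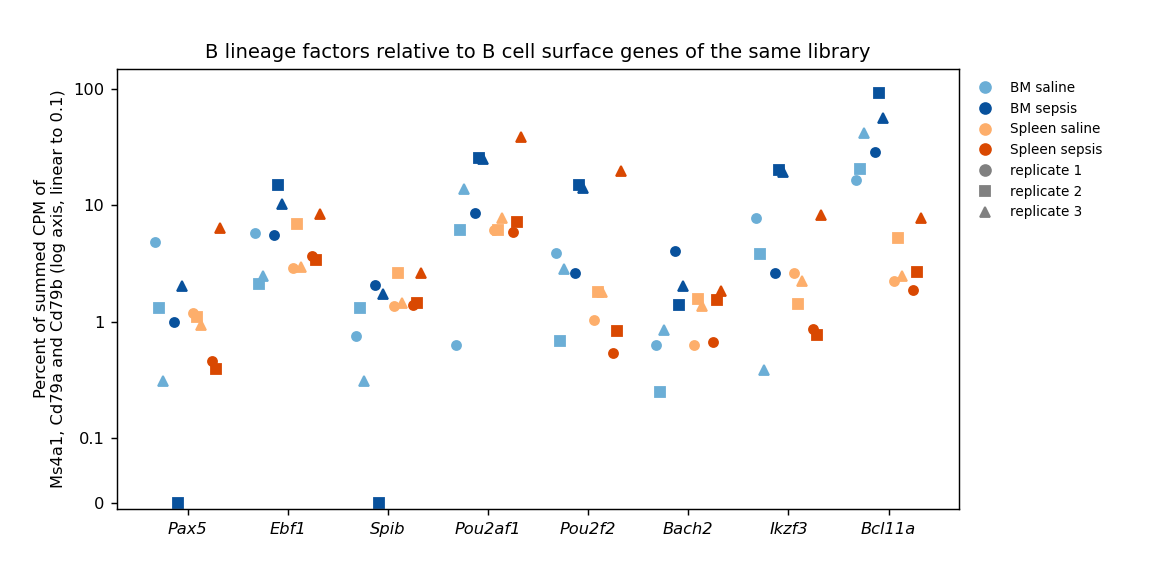
Level of each factor as a percent of the summed CPM of Ms4a1, Cd79a and Cd79b in the same library, on a log axis that is linear from 0 to 0.1, with 1 point per library. BM and splenic points overlap for 7 factors, and for Bcl11a the 6 BM points, from 16.6% up, lie above the 6 splenic points, which reach 7.84%, a separation shown by 42.4% of all genes tested.

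Genes that the factors are known to activate in B cells were higher in spleen with them. Of 14 such genes, 12 were called higher in splenic MKs after saline and 11 after sepsis in edgeR, and 0 were lower. Over all genes tested, 0.725% and 1.18% were called higher. The 14 genes include all of the 10 B cell markers above but Ighm and Ighd, so this count in part repeats that of the markers. The median log2 fold change was 4.91 after saline and 6.29 after sepsis. Among the genes known as Pax5 or Ebf1 targets, Cd79a, a signalling chain of the B cell receptor, had log2 fold changes of 4.47 ± 0.83 and 7.68 ± 0.97, and Blnk, an adaptor of B cell receptor signalling, 5.62 ± 0.78 and 7.01 ± 0.83, with adjusted p between 0.000129 and 0.00843. Also called after both treatments were Cd79b, Blk, Ms4a1, Cr2, Cd22, Bank1, Vpreb3 and Cxcr5, with log2 fold changes between 4.04 and 7.83. Cd72 was called after saline (6.05, adjusted p = 0.00936 in edgeR) and missed the threshold after sepsis (4.04, adjusted p = 0.0509). The antisense gene Tesk1 overlaps 41.6% of the exonic sequence of Cd72. Fcer2a (CD23) was not called (3.46 and 2.64), nor was Ciita, the switch for MHC class II genes (2.46 and 3.03). Limma-voom called 8 of the 14 after saline, the fewest of any alternative.

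The promoter windows of RefSeq (250 bases before to 50 after each start site, GRCm38.p6) were searched on both strands for 5 short motifs, and windows were found for 7 of the 8 factors, all but Ikzf3, and for 8 of the 14 activated genes. The octamer ATGCAAAT, bound by Oct-2 with OCA-B, was in none of the windows of the 7 factors and in those of 2 of the 8 activated genes, Vpreb3 and Blnk, and it is in 1.74% of all 32851 windows. Both are shown because their RNA, like that of Pou2af1, was called higher in spleen after both treatments, with the 150 bases before the start site at chr10:75948150-75948299 (forward strand) and chr19:40994222-40994371 (reverse strand), 5′ to 3′ in the direction of the gene. Capitals mark the octamer, which reads ATTTGCAT because it lies on the opposite strand, at bases -45 and -130 from the start.
Vpreb3: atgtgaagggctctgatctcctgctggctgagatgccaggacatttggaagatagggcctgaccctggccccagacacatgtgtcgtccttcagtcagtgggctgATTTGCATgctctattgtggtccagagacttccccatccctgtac
Blnk: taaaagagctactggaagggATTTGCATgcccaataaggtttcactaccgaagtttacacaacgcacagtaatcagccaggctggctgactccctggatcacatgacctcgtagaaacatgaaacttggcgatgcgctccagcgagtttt
The Ebf palindrome CCCNNGGG was in 1 of the 7 factors' genes, Spib (shown above), in 2 of the 8 activated genes (Bank1 and Cd22) and in 13.7% of all windows. GAGGAAGT, bound by Spi-B and PU.1, was in none of the factors' windows, in that of Cd72 and in 3.20% of all windows, and TGAGTCA, bound by Bach2 with Maf proteins and by AP-1, was in none, in 1 of those of Fcer2a and in 5.20% of all windows. TGGGAA, the core bound by the Ikaros family, was in windows of Ebf1 and Bcl11a, of 3 activated genes and in 25.6% of all windows. A match describes the letters of a window only, and no binding was measured.

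Other regulators of the B lineage were mixed. Of 15 such genes, 2 were called higher in splenic MKs after saline (Irf8 and Id3) and 4 higher and 1 lower after sepsis. Irf8, which works with PU.1 in B and myeloid cells, had a log2 fold change of 3.93 ± 0.87 (edgeR, adjusted p = 0.0294) after saline and 3.44 ± 0.85 (adjusted p = 0.0416) after sepsis, and Id3, an inhibitor of E proteins, 7.58 ± 1.41 (adjusted p = 0.00841) and 5.48 ± 1.27 (adjusted p = 0.0270). After sepsis Irf8 was at 46.2, 31.7 and 267 CPM in splenic replicates 1 to 3, so replicate 3 made most of the mean, and at 9.61 to 11.2 CPM in BM. Foxo1, which drives recombination and receptor genes in B cells, and Ets1, a lymphoid Ets factor, were called higher after sepsis (3.63 and 2.51, adjusted p = 0.0119 and 0.0260 in edgeR), where Myb, a factor of progenitors, was called lower (-3.97, adjusted p = 0.00176). The E protein gene Tcf3, which acts upstream of Ebf1, was at 18.9 to 35.6 CPM in BM and 6.89 to 56.00 CPM in spleen and was not called (-0.9999 and 0.55). Tcf4, Ikzf1 and Spi1 (PU.1) were not called either, with log2 fold changes of 1.24, 1.25 and 1.86 after saline and 1.82, 1.28 and 0.25 after sepsis. The count after saline was 1 without any 1 of the 3 BM saline libraries, 4 without splenic sepsis replicate 3, where Id3 was at 1.65 CPM against 16.3 CPM or more in the other splenic libraries, and 0 with limma-voom. That of higher genes after sepsis was 2 without BM sepsis replicate 1 or 2, and 1 without BM sepsis replicate 3 or in the fit of the 6 libraries alone.

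The family relatives of the 8 factors did not pass the test between tissues. Of 13 relatives, 12 were tested and 0 were called after either treatment or in any alternative, with a median log2 fold change of 1.54 after saline and 0.71 after sepsis. An unadjusted p under 0.05 was met by 1 of the 12 after saline and by 2 after sepsis. Ikzf1, the Ikaros gene itself, was at 59.01 to 121 CPM in BM MKs and 131 to 282 CPM in splenic MKs, so that its 6 splenic libraries also lay above its 6 BM libraries, beside 0.538 to 17.9 and 33.9 to 166 CPM for Ikzf3. Ikzf2 (Helios) had log2 fold changes of 0.31 and -1.36, Ikzf4 (Eos) 1.69 and 1.06, and Ikzf5 0.27 and -0.52. Antisense genes overlap 84.5% of the exonic sequence of Ikzf5. The difference in fold change between a factor and its relative was not tested.

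**Figure D5:**
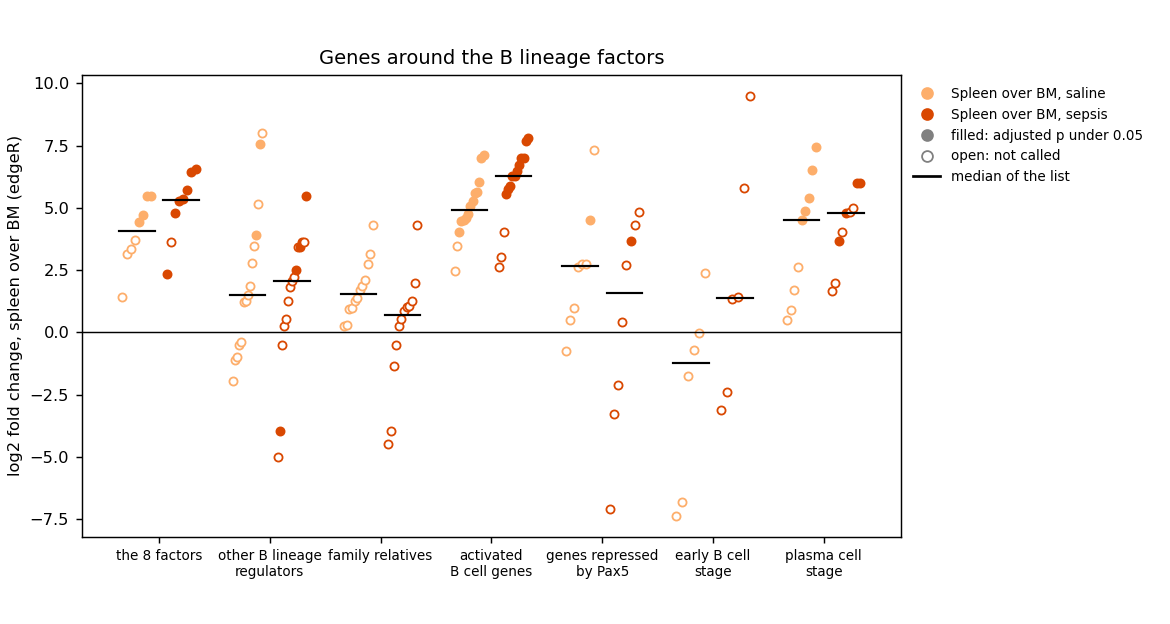
log2 fold change of spleen over BM (edgeR) for each tested gene of 7 lists, after saline and after sepsis, with filled points called at an adjusted p under 0.05 and black bars for the median of each list. The 8 factors (medians 4.07 and 5.31) lie near the activated B cell genes (4.91 and 6.29), and the family relatives (1.54 and 0.71) and early B cell stage (-1.24 and 1.37) have no filled point.

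Of 9 genes of the early B cell stage, at which immunoglobulin genes are rearranged, 6 were tested and 0 were called between tissues. Dntt, the enzyme that adds bases at the joins, had 0 CPM in all 12 libraries, and Vpreb1, a surrogate light chain gene, was at 0 to 4.04 CPM in BM and 0 to 11.1 CPM in spleen. The recombinase genes Rag1 and Rag2 were at 63.3 and 21.9 CPM in splenic sepsis replicate 3, the library with the most Pax5, and at no more than 4.77 and 3.28 CPM in any other library, and neither was called (adjusted p = 0.253 and 0.460 after sepsis in edgeR).

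Genes of the plasma cell stage, which Bach2 and Pax5 are known to hold back, were in part higher in splenic MKs. Of 9 genes, 5 were called higher in spleen after saline and 4 after sepsis, with medians of 4.53 and 4.78. Irf4, which drives plasma cell formation, had log2 fold changes of 6.52 ± 1.17 (edgeR, adjusted p = 0.00675) and 4.78 ± 1.06 (adjusted p = 0.0220), and Jchain, which joins secreted antibody, 4.53 ± 0.62 and 3.68 ± 0.59. Mzb1 and Derl3, which serve protein folding and turnover in the endoplasmic reticulum, were called after both treatments (5.39 and 5.99, 4.87 and 6.01), and Tnfrsf17, the receptor BCMA, after saline (7.43). Another gene on the same strand, SPATA24, overlaps 57.2% of the exonic sequence of Mzb1. Prdm1 (Blimp-1), the gene that Bach2 represses most directly, was at 0.0859 to 17.4 CPM in BM and 11.7 to 101 CPM in spleen and was not called (2.61 and 4.85). Xbp1, Sdc1 and Fkbp11 were not called either, with log2 fold changes of 1.701, 0.896 and 0.51 after saline. Splenic sepsis replicate 3 had the least Jchain of the splenic libraries (6552 CPM against 29609 CPM or more). Limma-voom called 1 of the 9 after saline, and the 6 libraries alone gave 1 after sepsis.

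Among 8 genes known to be repressed by Pax5, 1 was called higher in splenic MKs after either treatment, and it was Jchain. Within spleen, 1 of the 8 was called lower after sepsis than after saline in edgeR, where 0.158% of all genes tested were called in either direction. Csf1r, Notch1, Flt3 and Cd28 were not called, with log2 fold changes of 2.76, -0.74, 2.76 and 7.32 after saline and -7.08, 4.31, 0.42 and 2.71 after sepsis. The count after saline was 2 when replicate 3 of BM saline, replicate 3 of splenic saline or replicate 1 of splenic sepsis was left out, and that after sepsis was 2 without BM saline replicate 3 or BM sepsis replicate 2, while limma-voom called 0 after either treatment.

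The genes whose levels over the 12 libraries were most like the mean of the 8 factors (in log2 CPM) included B cell and antigen presentation genes. Among them were the MHC class II gene H2-Eb1 (Pearson r = 0.986 across 12 libraries), the follicle homing receptor Cxcr5 (0.984), Shisa5 (0.976) and Cd79b (0.972). H2-Eb1 had a mean of 12.8 CPM in BM and 1271 CPM in spleen, and Shisa5, a protein of the endoplasmic reticulum, 47.05 and 546 CPM. The mean of the factors was 1.44 to 2.77 log2 CPM in BM and 5.96 to 7.28 in spleen, so the libraries fall into separate clusters by tissue, and r is given as a ranking of genes with no test.

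Markers of other cells that use some of the same factors were read beside these results. For plasmacytoid dendritic cells, 0 of 6 tested markers were called between tissues after either treatment and 1, higher in spleen, in the average over treatments. The 8 markers summed to 86.1 to 171 CPM in BM and 186 to 617 CPM in spleen, of which Tcf4 gave 44.2 to 117 and 102 to 425 CPM. The defining marker Siglech was at 0 to 0.0859 CPM in BM and 0 to 5.26 CPM in spleen, at 0 in all 6 sepsis libraries. For T cells, 0 of 8 markers were called after either treatment and 4 in the average over treatments, and they summed to 7.23 to 88.1 CPM in BM and 145 to 1638 CPM in spleen, with the splenic libraries overlapping by treatment. The T cell count was 0 to 3 with 1 library left out, after saline (3 without BM sepsis replicate 1 or 2 or splenic saline replicate 3) as after sepsis (3 without BM sepsis replicate 1), and after saline it was 4 with no filter, 2 with DESeq2 and 2 with a replicate block. For plasma cells, 4 of 7 markers after saline and 3 after sepsis were called higher in spleen, and they summed to 1477 to 4696 and 7621 to 80783 CPM. Jchain alone gave 1344 to 4603 CPM of these sums in BM and 6552 to 80009 CPM in spleen. Over the alternatives the plasma cell count was 0 (limma-voom) to 5 after saline and 1 (the 6 libraries alone) to 5 after sepsis. Markers of conventional dendritic cells summed to 3.26 to 26.5 CPM in BM and 4.85 to 144 CPM in spleen, those of NK cells to 0 to 151 and 15.8 to 1124 CPM, those of neutrophils to 60.6 to 16029 and 65.2 to 18229.5 CPM and those of monocytes and macrophages to 312 to 997 and 72.9 to 1977 CPM. Erythroid markers summed to 32.6 to 342 and 17.6 to 453 CPM and stem and progenitor markers to 118 to 240.0 and 13.4 to 111 CPM. None of these 6 lists gave a call after saline, and after sepsis 1 neutrophil gene (Elane) and 1 progenitor gene (Kit) were called lower in spleen, with 1 to 4 and 0 to 2 such calls when 1 library was left out. Over the alternatives after saline, up to 4 neutrophil, 2 conventional dendritic and 2 NK cell genes were called higher. Up to 2 neutrophil, 1 erythroid and 1 progenitor gene were called lower. After sepsis, up to 3 monocyte and macrophage, 1 conventional dendritic and 1 erythroid gene were called lower, and up to 1 conventional dendritic and 1 NK cell gene higher. The summed levels of the B cell, plasma cell, T cell and plasmacytoid dendritic cell markers, like those of the 8 factors, did not overlap between tissues and were higher in spleen. Their part in the result was not tested.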

How the data were processed

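RNA of 12 libraries of 300 sorted MKs was amplified with the SMART-Seq HT kit, made into Nextera XT libraries and sequenced. Per the labels and the submitters' processing notes, the authors aligned reads with STAR 2.7.2b to GRCm38 and used R 3.6.1 and DESeq2 1.26. They deposited raw read counts per gene for 55536 genes. The annotation, strand setting and counting options were not given in the sources used here.

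From the deposited counts, genes were kept with filterByExpr (minimum count 10), which left 20263, and libraries were scaled with TMM. Group means of the 4 groups were fitted with edgeR 4.0.16 (R 4.3.3) by quasi-likelihood (glmQLFit, glmQLFTest), with 8 residual degrees of freedom and a common dispersion of 2.05. Fold changes are spleen over BM and sepsis over saline. P values were adjusted by Benjamini and Hochberg over all genes tested and called under 0.05. The SE is the absolute log2 fold change over the square root of F, and 95% intervals use t with the residual and prior degrees of freedom. CPM use TMM factors, and CPM per kb divide by merged exon length. Mean log2 CPM used a prior count of 2.

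Total counts were 7756762 to 27386184, TMM factors 0.713 to 1.43. Floors cover counting error only, whereas SEs and intervals include the spread between libraries. Counts of replicates differed beyond sampling noise in all 12 pairs (chi-square per degree of freedom 62.2 to 644), so none was counted as a repeat. Gene positions are from GENCODE annotation of GRCm38, and promoter windows from RefSeq, GRCm38.p6. The edgeR fit was tested on simulated data. The members and the gene lists were chosen with earlier results of these data known. Named were all 8 members, the genes of each pathway list called between tissues, up to 4 uncalled ones first in the list, and the 5 genes most correlated with the members' mean, except 1 gene that is not reported here. Alternatives were other scalings, other filters, DESeq2 1.42.0, limma-voom (limma 3.58.1), a replicate block, only the 6 libraries of a comparison, no segment genes and each library left out. Python 3.11.15 with pandas 2.3.3 was used for summaries and matplotlib 3.10.9 for plots.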

Additional observations from a re-analysis of the deposited data

How the results depend on the processing

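The differences between tissues kept their direction for all 8 factors under every alternative run. The number of factors called was 4 to 5 after saline, 6 to 8 after sepsis and 7 to 8 in the average over treatments when 1 library was left out, and 3 to 5 and 6 to 8 after saline and sepsis over all alternatives, while sepsis within BM, sepsis within spleen and the interaction gave 0 factors in each. Sepsis over saline in spleen turned negative for Pax5 (-0.18) and Pou2f2 (-0.12) without splenic sepsis replicate 3 and for Ikzf3 without that library (-0.30), without splenic saline replicate 2 (-0.14) and with limma-voom (-0.020), and the cause was not tested. With 1 library left out these values ranged from -0.18 to 1.04 for Pax5, from -0.12 to 2.11 for Pou2f2 and from -0.30 to 0.702 for Ikzf3. Counts over all genes moved more. Between tissues after saline 253 genes were called, 529 with no filter, 1064 with DESeq2 and 197 to 467 with a library left out. After sepsis 361 were called, 595 with no filter, 1238 with DESeq2, 724 with limma-voom and 307 to 512 with a library left out. In the average over treatments 962 were called, 1515 with library size alone, 2174 with DESeq2, 1517 with limma-voom and 810 to 1151 with a library left out. For sepsis in BM the count was 0, with no filter 81, with DESeq2 221 and 0 to 12 with a library left out. For sepsis in spleen it was 32, with no filter 187, with 10 counts in at least 6 libraries 20, with DESeq2 915, with limma-voom or only the 6 libraries 0, and 48 to 138 with a library left out. For the interaction it was 0, with no filter 130, with DESeq2 472 and 3 to 48 with a library left out. In edgeR 717 genes for sepsis in BM and 1556 for the interaction had an unadjusted p under 0.05.

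With a replicate block, 4 and 6 factors were called between tissues after saline and sepsis and 0 in the other comparisons, with 288, 401, 0, 33 and 0 genes in all, and Bcl11a after sepsis lost its call (adjusted p = 0.0524). Same-numbered libraries of different groups did not deviate together (18 correlations of deviations from group means, -0.0566 to 0.0447), and 4 of 12 libraries correlated best with their own number, so the numbers were not taken to pair the libraries. The biological coefficient of variation was 143%, and the smallest tissue difference called among the factors within a treatment was 2.36 on the log2 scale (Bcl11a after sepsis).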
